A study of Mus musculus with 12 samples.

Results

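The heat shock chaperones described here were 10 genes, HSPA1A, HSPA1B, HSPH1, DNAJB1, HSPB1, HSP90AA1, HSP90AB1, HSPA8, HSPD1 and HSPE1, looked up by symbol among 13647 genes listed above the lesion and 12338 listed below it. They were selected on measured values, because HSPA1B was already known to have a large ratio between the genotype labels above the lesion, and the ratios of these genes are therefore given as a description with no test. Values could be read for 9 of them above the lesion and 8 below it, and 8 members were listed at both sites. HSPA8, the constitutive HSP70 of the cytosol, was listed at neither site and HSPH1 was not listed below the lesion, so these values were not analysed here.

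RNA was sequenced in bulk from segments of spinal cord just above (rostral to) or below (caudal to) a contusion at thoracic vertebra 9. The 12 libraries came from male mice 4 months old, 14 days after injury, and fell into 4 groups of 3 libraries. All 4 groups carried human ApoE4 in place of the mouse gene and all received the contusion. At each site mice labelled synj1+/+, with intact synj1 alleles, were compared with mice labelled synj1+/-, with an inactive synj1 allele, to ask what lowering this lipid phosphatase changes after injury in ApoE4 carriers. ApoE3 mice and sham-operated mice were not analysed here. The deposited table held a single value per gene, group and site, combined over 3 libraries, so no spread between mice could be computed, no difference has a replicate check, and no p-value is given anywhere. Levels are fragments per kilobase of transcript, scaled to sequencing depth (FPKM) on the authors' upper-quartile scale, log2 ratios are of mice labelled synj1+/- over mice labelled synj1+/+ on FPKM plus 1, and a ratio of 0.5 or more in size on the log2 scale (1.41-fold) is called lower or higher. Where a pair of levels is given without labels, synj1+/+ comes first, and where a pair of ratios is given, above the lesion comes first. The study's account of its animals gives 3 mice per genotype for sequencing, with segments from both sites, so the groups above and below appear to share mice, although the labels do not say which segments belong together.

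SYNJ1, the targeted gene, was higher in mice labelled synj1+/- at both sites, against the labels, although neither ratio reached the size called. Its level above the lesion was 1904 FPKM in mice labelled synj1+/+ and 2403 FPKM in mice labelled synj1+/-, a log2 ratio of 0.34. Below the lesion it was 1846 and 2592 FPKM, a log2 ratio of 0.49. The spread of SYNJ1 between mice is not known. Neuron markers had median log2 ratios of 0.088 above and 0.19 below, and their part in the SYNJ1 ratios was not tested. Whether the group labels were exchanged in the table, or the inactive allele still gives transcripts that were counted, was not tested. An exchange would turn the sign of every ratio, and each direction given here is that of the labels. The astrocyte gene GFAP was present in every group, between 8484 and 12974 FPKM. The myelin genes MBP, MAG and CNP were not among the genes listed.

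Heat shock chaperones bind unfolded protein and help it fold, and cells make more of them after heat, oxidation or injury. Heat shock factor 1 (HSF1) drives much of this response by binding inverted repeats of the unit GAA before the start of target genes. HSPA1A and HSPA1B encode the stress-inducible HSP70 proteins, which work with J-domain proteins such as DNAJB1 and exchange factors such as HSPH1. HSPB1 is a small heat shock protein that holds unfolded chains without ATP and is made by reactive astrocytes and injured neurons. HSP90AA1 and HSP90AB1 are the cytosolic HSP90s, and HSPD1 with its lid HSPE1 form the mitochondrial chaperonin.

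The bases before the start are shown for the 3 members called lower above the lesion, since the heat shock motif lies in them. Each run gives the 250 bases before the RefSeq start (GRCm38.p6), 5′ to 3′ on the strand of the gene, and capitals mark matches to GAANNTTC or TTCNNGAA, a facing pair of units searched on both strands.
HSPA1A (chr17:34972157-34972406, minus strand): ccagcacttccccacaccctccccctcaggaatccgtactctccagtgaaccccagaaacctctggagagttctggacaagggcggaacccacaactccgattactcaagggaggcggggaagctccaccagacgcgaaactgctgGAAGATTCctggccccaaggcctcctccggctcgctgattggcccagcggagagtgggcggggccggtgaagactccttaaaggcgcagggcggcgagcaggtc
HSPA1B (chr17:34959239-34959488, minus strand): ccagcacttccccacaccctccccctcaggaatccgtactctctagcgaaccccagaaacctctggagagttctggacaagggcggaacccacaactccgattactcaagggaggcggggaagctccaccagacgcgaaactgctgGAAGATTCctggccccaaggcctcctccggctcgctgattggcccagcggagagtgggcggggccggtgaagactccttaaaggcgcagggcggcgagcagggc
HSPB1 (chr5:135887669-135887918, plus strand): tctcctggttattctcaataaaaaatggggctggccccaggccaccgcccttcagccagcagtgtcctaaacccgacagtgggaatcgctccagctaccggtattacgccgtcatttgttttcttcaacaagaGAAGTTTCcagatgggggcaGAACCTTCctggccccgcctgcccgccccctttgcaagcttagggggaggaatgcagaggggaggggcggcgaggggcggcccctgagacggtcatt
The HSPA1A and HSPA1B runs differed at 3 of 250 bases, and in both the match lay 104 to 97 bases before the start. HSPB1 held 2 matches, at 117 to 110 and at 97 to 90 bases before its start.

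Members whose ratios were small also held the motif, and the only runs of 3 units were among them. The stretches below are 30 bases round the matches of HSPE1 and HSPH1, shown because neither gene was called lower.
HSPE1 (chr1:55088053-55088082, plus strand): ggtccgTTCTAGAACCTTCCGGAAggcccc
HSPH1 (chr5:149636351-149636380, minus strand): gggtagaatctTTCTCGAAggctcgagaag
The HSPE1 stretch holds 3 overlapping matches, which together make runs of 3 alternating units. The same bases lie before the second RefSeq start of HSPD1, which faces HSPE1 on the other strand. By GENCODE positions these bases lie inside the HSPD1 gene, and the HSPH1 match lies inside the HSPH1 gene, although before its RefSeq starts. Of the 10 members 7 had an entry in the RefSeq table, with 10 starts in all. A match to the pair of units was found at 7 of these starts, in 6 members, and a run of 3 units at 2 starts, in HSPD1 and HSPE1. Both HSPH1 starts hold the same match, and the runs of HSPD1 and HSPE1 are the same bases, so some bases are counted at more than 1 start. Among 32817 promoters of the same length 12.8% held the pair and 0.466% the run of 3. DNAJB1 held neither at its 2 starts, and the window of the second start lies inside the gene. This says only that these letters are not in those windows. A TATAAA box was found before none of the 10 starts searched, in 7 members, and in 12.4% of all promoters.

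**Figure D1:**
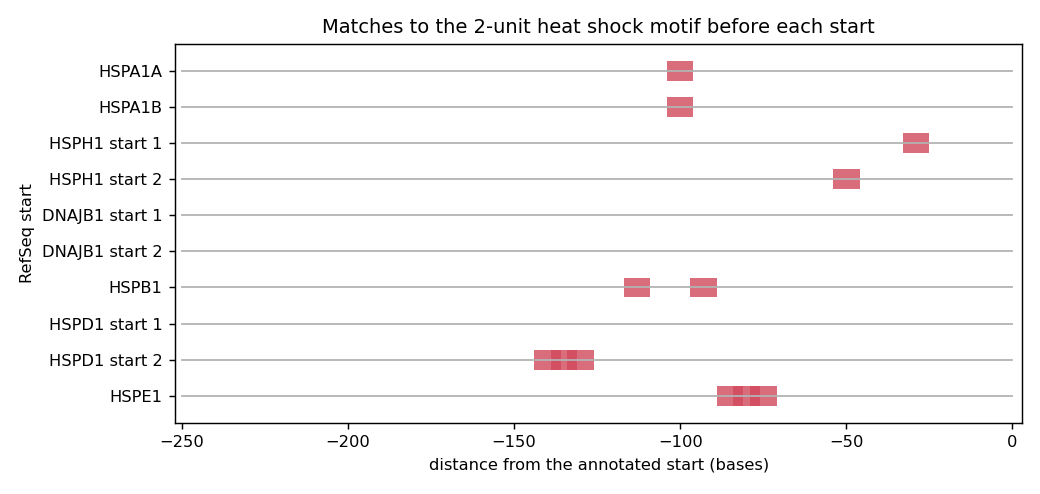
Matches to the 2-unit heat shock motif (red) on the 250 bases before each RefSeq start, with the distance from the start in bases on the x axis and a line for each start. HSPA1A and HSPA1B carry their match at the same distance, and the HSPE1 and HSPD1 matches are the same bases read from either strand.

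HSPA1A and HSPA1B had the largest ratios of the listed members above the lesion, and both were lower in mice labelled synj1+/-. HSPA1A (chr17:34969190-34972156, minus strand, GRCm38) was at 149 FPKM above the lesion in mice labelled synj1+/+ and at 73.4 FPKM in mice labelled synj1+/-. Below the lesion it was at 59.4 and 57.7 FPKM. The synj1+/+ group above the lesion was thus the high group, and the other 3 lay between 57.7 and 73.4 FPKM. The log2 ratio was -1.01 above the lesion, 2.02-fold lower, and -0.042 below it.

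HSPA1B (chr17:34956436-34959238, minus strand) had the same high group at a lower level. It was at 21.2 FPKM above the lesion in mice labelled synj1+/+ and at 6.78 FPKM in mice labelled synj1+/-. Below the lesion it was at 5.66 and 4.80 FPKM. The other 3 groups lay between 4.80 and 6.78 FPKM. The log2 ratio was -1.52 above the lesion, 2.86-fold lower on FPKM plus 1 and 3.14-fold lower on FPKM itself, and -0.20 below it. Because the level is low, its log2 ratio above the lesion was -0.86 when 10 was added to each value.

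**Figure D2:**
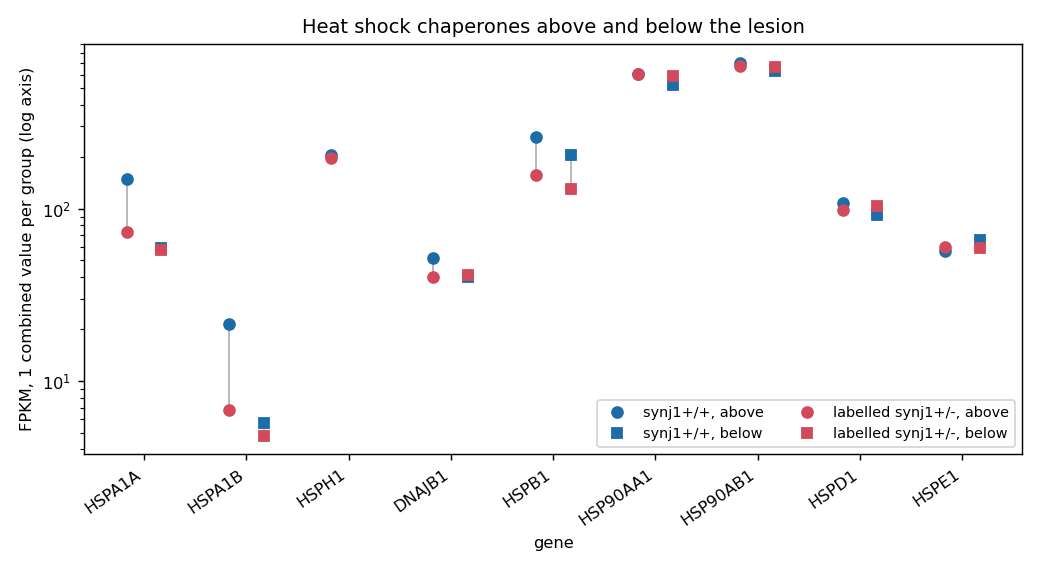
Combined FPKM of the 9 listed chaperones (log axis) in mice labelled synj1+/+ (blue) and in mice labelled synj1+/- (red), above (circles) and below (squares) the lesion, with a grey line joining the groups compared. HSPA1A and HSPA1B are apart in the synj1+/+ group above the lesion, and HSPB1 is lower in mice labelled synj1+/- at both sites; no error bars are drawn because each point is a single combined value.

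The pair cannot be fully separated in reads of this length. Both genes have 1 exon and lie 9951 bases apart. Of 2704 windows of 100 bases along the HSPA1B transcript 1350, or 49.9%, occur without a mismatch in HSPA1A, and 47.1% of the HSPA1A windows occur in HSPA1B. The split of reads between them is therefore uncertain. Their sum was 170.2 and 80.2 FPKM above the lesion, a log2 ratio of -1.08, and 65.1 and 62.5 FPKM below it, a log2 ratio of -0.058. The sum depends little on how shared reads were split, as the transcripts are 2967 and 2803 bases long, but it leaves out any shared reads that were not counted. HSPA1L, which starts 546 bases from HSPA1A on the other strand, shares 3.29% of the HSPA1B windows.

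Among the partners of HSP70, DNAJB1 (chr8:83608193-83612653, plus strand), the J-domain protein that stimulates its ATPase, was at 51.7 FPKM in mice labelled synj1+/+ and 40.1 FPKM in mice labelled synj1+/- above the lesion. Below it the values were 40.3 and 41.4 FPKM. The synj1+/+ group above the lesion was highest and the other 3 lay between 40.1 and 41.4 FPKM. The log2 ratio of -0.36 above the lesion did not reach the size called, and it was 0.039 below. HSPH1 (chr5:149614287-149636376, minus strand), the HSP110 exchange factor that is also induced through HSF1, was at 205 and 197 FPKM above the lesion, a log2 ratio of -0.054.

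HSPB1 (chr5:135887919-135889563, plus strand) was the only listed member called lower at both sites. Above the lesion it was at 261 FPKM in mice labelled synj1+/+ and at 157 FPKM in mice labelled synj1+/-, a log2 ratio of -0.73 or 1.66-fold lower. Below the lesion it was at 205 and 130.1 FPKM, a log2 ratio of -0.65 or 1.57-fold lower. Both synj1+/+ groups thus lay above both values labelled synj1+/-, which sets HSPB1 apart from the HSP70 pair in the order of the 4 values.

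The cytosolic HSP90s were the most abundant members and had small ratios. HSP90AA1 (chr12:110690605-110702728, minus strand), the inducible form, was at 603 and 605 FPKM above the lesion and at 525 and 589 FPKM below it, with log2 ratios of 0.0044 and 0.17. HSP90AB1 (chr17:45567775-45573271, minus strand), the constitutive form, was at 704 and 677 FPKM above and at 631 and 664 FPKM below, with log2 ratios of -0.057 and 0.074. The inducible and the constitutive form thus had ratios of a like size.

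The mitochondrial chaperonin genes had small ratios of opposite sign at the 2 sites. HSPD1 (chr1:55077835-55088243, minus strand) was at 107.7 and 97.6 FPKM above the lesion and at 92.4 and 103.6 FPKM below it, with log2 ratios of -0.14 and 0.16. HSPE1 (chr1:55088132-55091307, plus strand) was at 57.0 and 59.8 FPKM above and at 66.1 and 59.1 FPKM below, with log2 ratios of 0.069 and -0.16. The genes overlap by 112 bases on opposite strands, and the kit did not keep strand, so reads from that stretch cannot be told apart.

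Above the lesion, 3 of 9 listed members were called lower and 0 higher, where 2.87% of all genes listed there were called lower and 1.3% higher. Below the lesion 1 of 8 was called lower and 0 higher, where 5.74% of all genes were called lower and 2.04% higher. Since the members were selected with these ratios known, nothing is read from the difference between the shares. The median log2 ratio was -0.14 over the 9 members above and -0.0017 over the 8 below, beside -0.0039 and 0.014 over all genes. In the order of all log2 ratios above the lesion from the lowest, HSPA1B was number 26, HSPA1A 74, HSPB1 146 and DNAJB1 826 of 13647. Below the lesion HSPB1 was number 429 of 12338, and the other listed members were at 2436 or later. Low genes were called more often. Among the 10805 genes above the lesion with FPKM plus 1 of at least 10 in both groups, 1.60% were called lower.

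**Figure D3:**
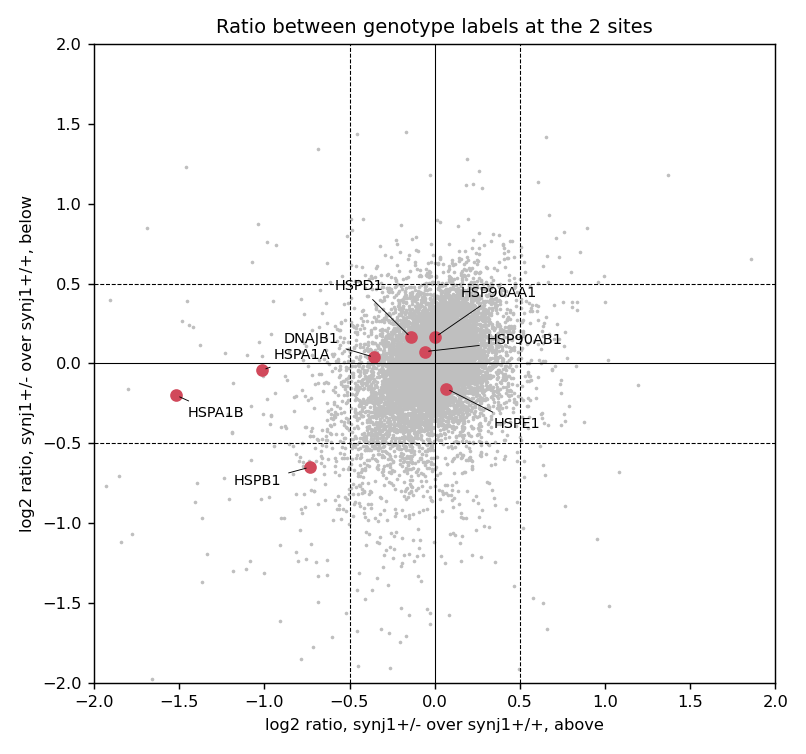
The log2 ratio above the lesion (x axis) against that below it (y axis) for 12023 genes listed at both sites (grey), with the 8 members listed at both in red and dashed lines at 0.5 in size; 25 genes lie outside the axes. HSPA1A and HSPA1B lie left of the dashed line near a ratio of 0 on the y axis, HSPB1 lies past both dashed lines, and the other members lie inside them.

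The log2 ratio below minus above was 1.32 for HSPA1B and 0.97 for HSPA1A, and it was 0.39 for DNAJB1 and 0.083 for HSPB1. The other listed members lay between -0.23, for HSPE1, and 0.30, for HSPD1. Of 12023 genes listed at both sites 3.57% differed by 0.5 or more in this direction and 4.56% in the other. HSPA1B was number 28 and HSPA1A number 57 from the highest. The difference between the sites could not be tested.

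Folds between the sites are given on FPKM plus 1, which makes those of HSPA1B, at its low level, smaller than on FPKM itself. Within mice labelled synj1+/+, HSPA1A was 2.48-fold and HSPA1B 3.34-fold higher above than below the lesion. Within mice labelled synj1+/- the same folds were 1.27 and 1.34. DNAJB1 was 1.28-fold and HSPB1 1.27-fold higher above than below in mice labelled synj1+/+. The median log2 ratio of below over above for the 8 members was -0.28 in mice labelled synj1+/+ and -0.034 in mice labelled synj1+/-, beside -0.00083 and 0.022 for all 12023 genes. The sites were normalised separately by the authors, so these levels are given side by side and the site cannot be told apart from the normalisation.

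Levels of other cell types moved with the labels, and their part in the ratios of the chaperones was not tested. In bulk tissue, fewer cells of a type and less RNA per cell cannot be told apart. Above the lesion, where the HSP70 pair was lower, the red cell markers were higher in mice labelled synj1+/-, all 5 of 5 listed (of 6), with a summed level of 248 FPKM in mice labelled synj1+/+ and 1133 FPKM in mice labelled synj1+/-. Below the lesion 1 of 5 was called higher, and the sums were 629 and 825 FPKM. Over all genes 1.3% were called higher above and 2.04% below. The ratio of the HSP70 pair and that of the red cell genes were thus both larger above the lesion, in opposite directions.

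HSPB1 was called lower at both sites, and the other marker lists are given beside it. Over all genes 2.87% were called lower above and 5.74% below, and 1.3% and 2.04% were called higher. For astrocytes 0 of 9 listed markers were called above the lesion and 0 of 8 below, with median log2 ratios of -0.26 and -0.17. Their summed level, more than any other gene that of GFAP, was 20357 and 17136 FPKM above and 18361 and 14752 FPKM below. Microglia and macrophage markers were called lower for 3 of 10 above and 5 of 8 below, with sums of 1561 and 1159 FPKM above and of 1953 and 1259 FPKM below. Fibroblast markers were called lower for 4 of 7 above and 5 of 6 below. Their sums were 271 and 191 FPKM above and 374 and 60.8 FPKM below. Of those called above, COL1A1 (3.2 and 1.9 FPKM), COL3A1 (4.3 and 0.73 FPKM) and LUM (1.7 and 0.86 FPKM) were at levels close to 0. FN1 made up 229 and 158 FPKM of the sums above and was not listed below, so the sums at the 2 sites cover different genes. Neuron markers were not called above, 0 of 9, and 1 of 6 was called higher below. Their sums were 10183 and 11516 FPKM above and 8074 and 10199 FPKM below. RBFOX3, ELAVL4 and SYN1 were listed above only, as were VIM among astrocyte markers and P2RY12 and ITGAM among microglia markers. The sums of these lists therefore also cover different genes at the 2 sites. Oligodendrocyte markers were called at neither site, 0 of 5 at each, with median log2 ratios of -0.049 and 0.11. Their sums were 11831 and 11359 FPKM above and 11075 and 10432 FPKM below, of which MOBP alone made up 10915 and 10551 FPKM above and 10365 and 9723 FPKM below. Endothelial markers were called higher for 1 of 7 above and lower for 1 of 7 below, with sums of 189 and 199.9 FPKM above and of 249 and 235 FPKM below. No listed marker was at 0 in any group.

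The factors that drive the heat shock genes had small ratios. HSF1 was at 230.1 and 229 FPKM above the lesion and at 238 and 239 FPKM below, and HSF2 had log2 ratios of -0.094 and -0.11. HSF4 had the largest ratios of this list below the lesion, 0.34 above and 0.44 below. None of the 9 factors and regulators was called at either site, and their median log2 ratios were -0.050 and -0.057. HSF1 is switched on by trimerisation and phosphorylation, which RNA levels do not show.

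Of the HSP70 cochaperones, 0 of 20 listed above and 0 of 16 listed below were called, with medians of 0.041 and 0.14. BAG3, an exchange factor that is itself a heat shock gene, had log2 ratios of -0.21 and -0.12. DNAJA1, another J-domain partner, had 0.053 and 0.16. The other cytosolic HSP70s were likewise not called, 0 of 5 at each site, with ratios between -0.092 and 0.17 above and between -0.13 and 0.18 below. Counted over all genes with a DNAJ symbol, a count added after the data were seen, 0 of 37 were called lower above and 0 of 34 below. Of all genes, 2.87% above and 5.74% below were called lower, so counts of 0 in lists of this size are not read as a result. DNAJB1 was the lowest of the 37. DNAJB3 alone was called higher, above the lesion, at a log2 ratio of 0.66, where 1.3% of all genes were called higher.

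Among the HSP90 cochaperones only FKBP5 was called, 1 of 14 above and 1 of 10 below. Both calls were lower, where 2.87% of all genes above and 5.74% below were called lower. FKBP5, an immunophilin of the steroid receptor complex whose gene is induced by glucocorticoids, was at 13.7 and 7.47 FPKM above the lesion and at 14.5 and 9.16 FPKM below, with log2 ratios of -0.80 and -0.61. The median of this list was -0.047 above and 0.12 below. STIP1, which links HSP70 to HSP90, had log2 ratios of 0.013 and 0.20, and AHSA1, which activates the HSP90 ATPase, had -0.00053 and 0.15.

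Of the small heat shock proteins beside HSPB1, 1 of 5 listed above and 2 of 4 listed below were called lower, with medians of -0.16 and -0.34. The shares called lower over all genes were 2.87% and 5.74%. HSPB11 was at 21.6 and 13.9 FPKM above and at 19.9 and 5.39 FPKM below, log2 ratios of -0.60 and -1.71. It is a subunit of the intraflagellar transport complex in cilia and carries the name without belonging to the alpha-crystallin family. HSPB3 was listed below only, at 1.22 and 0.567 FPKM, with a log2 ratio of -0.50 at a level close to 0. CRYAB, the abundant alpha-B-crystallin of glia, was listed above only, with a log2 ratio of -0.16. HSPB6 and HSPB8 had ratios between -0.18 and 0.061 over both sites.

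Chaperonins and organelle chaperones gave a mixed picture. The TRiC chaperonin, which folds actin and tubulin, had 0 of 8 genes called above and 0 of 7 below, with medians of -0.0046 and 0.072. The mitochondrial chaperones and proteases had 0 of 11 called at each site, with medians of 0.082 and 0.075, and HSPA9, the mitochondrial HSP70, had -0.019 and 0.021. The endoplasmic reticulum list lay mostly below 0, for 13 of 17 genes above and 16 of 17 below, with medians of -0.19 and -0.22. One gene was called lower above and 2 below, where 2.87% and 5.74% of all genes were called lower. SDF2L1, a partner of the reticulum HSP70, had log2 ratios of -0.52 and -0.14, MANF, a secreted protein of reticulum stress, had -0.31 and -0.50, and SERPINH1, the collagen chaperone, had -0.45 and -1.67. SERPINH1 was at 405 and 126 FPKM below the lesion, where the fibroblast marker ratios were also lowest. HSPA5, the reticulum HSP70, had -0.40 and -0.11.

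**Figure D4:**
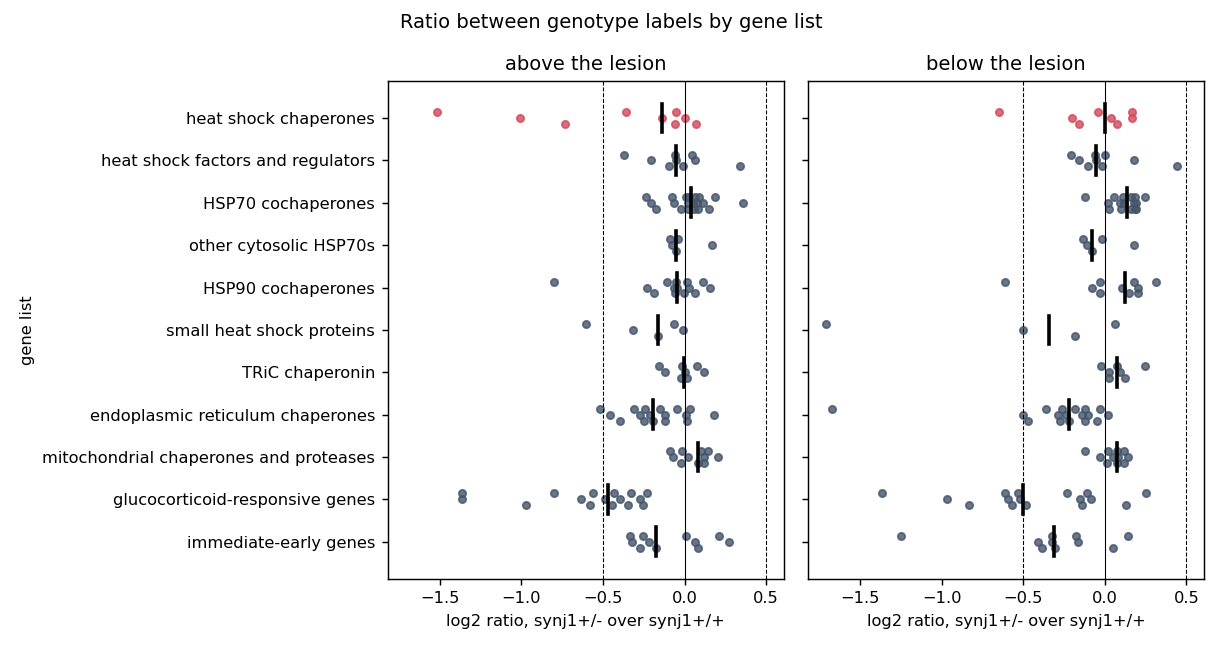
The log2 ratio of mice labelled synj1+/- over mice labelled synj1+/+ (x axis) for each gene of 11 lists (rows), above (left) and below (right) the lesion, with the members in red, list medians as black bars and dashed lines at 0.5 in size. Only 3 members lie left of the dashed line above, the cochaperone and chaperonin lists lie near 0 apart from FKBP5, and the glucocorticoid-responsive list lies furthest left at both sites.

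Glucocorticoid-responsive genes, which include FKBP5, were called lower for 7 of 16 above and 8 of 16 below and higher for 0 at each site. Their medians were -0.47 and -0.51. Of all genes, 2.87% were called lower above and 5.74% below. ZBTB16, a transcription factor, had log2 ratios of -1.37 and -0.97, PLIN4, a lipid droplet protein, had -1.37 at both sites, HIF3A had -0.97 and -0.84, and CDKN1A, the cell cycle inhibitor p21, had -0.58 and -0.60. CEBPD had -0.56 and -0.49, PDK4, a kinase that restrains pyruvate oxidation, had -0.49 and -0.53, and the metallothioneins MT1 and MT2, which bind zinc, had -0.39 and -0.33 above and -0.52 and -0.57 below. SGK1, a kinase induced by steroids, was at 519 and 334 FPKM above and at 343 and 409 FPKM below. Like HSPA1A it was highest in the synj1+/+ group above the lesion, with log2 ratios of -0.63 and 0.25.

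Immediate-early genes, which respond within minutes to stimulation or handling of tissue, were called for 0 of 11 above and, lower, for 1 of 10 below, with medians of -0.17 and -0.31. Of all genes, 5.74% were called lower below the lesion. FOS had log2 ratios of -0.17 and -0.18. EGR2, a transcription factor of this class that Schwann cells also use to make myelin, was at 30.9 and 32.3 FPKM above and at 41.4 and 16.8 FPKM below, with log2 ratios of 0.062 and -1.25.

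The genes whose pair of log2 ratios lay nearest to that of HSPA1B were ABCG2, GM14296, RETNLA, MGL2 and H2-T24. They were drawn from 9285 genes with FPKM plus 1 of at least 10 in all 4 groups. HSPA1B itself was under that level in every group but synj1+/+ above the lesion. ABCG2, an efflux transporter of brain endothelium, was nearest, at a distance of 0.33, with ratios of -1.21 and -0.31. GM14296 had ratios of -1.18 and -0.12. RETNLA and MGL2, which mark alternatively activated macrophages, had -1.38 and 0.12, and -1.10 and 0.055. H2-T24 had -1.01 and -0.32. ABCG2 was at 141 and 60.4 FPKM above the lesion and at 85.0 and 68.1 FPKM below, so that, as for HSPA1B, synj1+/+ above the lesion was the highest of the 4 values. RETNLA was at 66.9 and 25.1 FPKM above and at 32.6 and 35.4 FPKM below. GM14296 differed, at 34.9 and 14.8 FPKM above and at 38.1 and 34.9 FPKM below, with its highest value in synj1+/+ below the lesion. These distances rest on 2 ratios a gene and describe likeness in these 4 values.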

How the data were processed

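The deposited table was made by the authors from unstranded, paired 100-base reads of total RNA. Per the labels and the study's methods, reads were reduced to an equal number within each site, aligned to GRCm38.p6 with STAR 2.5.4b and summarised with Cuffdiff 1.3.0. The authors deposited, for each gene and group, an FPKM value combined over 3 libraries with upper-quartile scaling, each site on its own. The lowest value was 1.0 and 189 of 214 values between 1 and 2 carried 6 decimals, so 1 was taken to have been added to each FPKM and was taken off for the levels printed. The depth of each library cannot be read from such values, and no counting interval is given. The table's columns of fold changes, p-values and q-values were not used, and neither was a shorter list filtered on them. The table held 0 columns of single samples.

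The log2 ratio was recomputed from the deposited values (Python 3.11.15, pandas 2.3.3). A gene was called at 0.5 in size, and 3 symbols with duplicate rows were left out of look-ups. Named genes were the members, genes of the pathway lists called at either site, SYNJ1 and the 5 genes nearest HSPA1B by Euclidean distance; other list genes named as examples were chosen after their values were seen. The members and lists were chosen with earlier results of these data known. The code for the ratios and calls was tested on simulated data. Gene positions are from GENCODE vM21, transcripts too, and promoters from RefSeq. Alternatives were other sizes, pseudocounts, centring, a filter on low values and a summed HSP70 pair.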

Additional observations from a re-analysis of the deposited data

How the results depend on the processing

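The number of members called lower above the lesion was 3 as reported, 4 at a size of 0.25, 2 at a size of 1, and 2 with HSPA1A and HSPA1B summed or with values of at least 10 in both groups. Below the lesion it was 1 as reported and 0 at a size of 1, since HSPB1 is under a 2-fold difference. No member was called higher at either site under any of these alternatives. The share of all genes past a size of 0.25 or 1 was not computed, so nothing is read from the counts at these sizes. Among all genes with values of at least 10 in both groups, 1.60% were called lower above and 3.69% below. The log2 ratio of the members above the lesion had a median of -0.14 and a mean of -0.42, which the HSP70 pair pulls down, and a median of -0.057 without the pair. Below the lesion the median without the pair was 0.056, on the other side of 0 from the -0.0017 reported. Of 67 alternative values of single members 63 stayed within 0.1 on the log2 scale and on the same side of 0.5, and all 67 kept their sign. The other 4 were HSPA1B: -0.86 above, -0.077 below and 0.78 for the difference between the sites with 10 added, and -1.65 above with 1 taken off. Leaving out a library was not run, because each value combines 3 libraries. No paired analysis was possible because the table gives no values of single samples. No spread between mice could be computed.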
